A study of Caenorhabditis elegans with 6 samples.

Results

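The genes described here are the sperm genes of Caenorhabditis elegans, read in early embryos in which histone H3 lysine 9 (H3K9) methylation, or the protein that anchors methylated chromatin, was missing. They were chosen by symbol, as every gene of the count table named msp-, spe-, nspd-, ssp- or fer- with a number, plus gsp-3 and gsp-4. This gave 83 of 20182 genes: 30 msp, 10 nspd, 12 ssp, 2 gsp and 29 spe or fer genes. Of the 83, 54 had at least 1 count in some library and 24 were abundant enough to be tested. The met-2 set-25 embryos (strain GW638) carried deletions of both H3K9 methyltransferase genes, met-2 and set-25, and the cec-4 embryos (strain GW828) a deletion of cec-4, whose product holds methylated chromatin at the nuclear envelope. Wild-type embryos (strain GW1) were the control. Each genotype was grown as 2 independent cultures at 20 °C, in liquid medium, for 60 to 65 hours depending on the strain. The sources used here do not give the time of each strain, so growth time and genotype cannot be told apart. Embryos were pooled from whole cultures, so fewer cells with a transcript and less transcript per cell cannot be told apart either. RNA was sequenced after ribosomal RNA was removed.

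Sperm of this nematode are amoeboid cells that crawl on a cytoskeleton of major sperm protein (MSP) instead of actin. Hermaphrodites make them late in larval life, before the germline switches to oocytes. The genes that build sperm are transcribed in the spermatogenic germline and not, as a class, in the cells of the embryo. Early embryos carry mainly maternal transcripts. H3K9 methylation is known for keeping repeats and tissue-specific genes silent in this animal. The products fall into structural proteins of the crawling cell (MSP and the related SSP family), small peptides (the NSPD family), enzymes and regulators of sperm formation, factors of sperm activation, and surface proteins used to meet and fuse with the egg.

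Depth and labels were read first. The 6 libraries held 30171874 to 45677214 counts over genes. Levels are given as CPM, counts scaled to library size and expressed per 1e6, and a count of 3 corresponded to between 0.0657 and 0.0994 CPM in a library. Counts of met-2 came to 2425 and 2930 in met-2 set-25 embryos, against 18263 and 14980 in wild-type. Those of set-25 came to 856 and 938 in met-2 set-25 embryos and 5178 and 3992 in wild-type, and those of cec-4 to 4393 and 2666 in cec-4 embryos and 12894 and 11389 in wild-type. Each deleted gene was lowest in the strain labelled as lacking it. In the edgeR test described below, met-2 and set-25 passed (adjusted p = 0.00204 and 0.00466), and cec-4, with a log2 fold change of -1.64 (SE 0.181) in cec-4 embryos over wild-type, did not (adjusted p = 0.0955). Each of the 16 maternal and 15 early zygotic marker genes had counts. Between 17168 and 17535 of the 20182 genes had a count in each library, so this is a weak check of the stage. The 6 vitellogenin genes, which mark the adult intestine, summed to at most 34 counts in a library, with vit-4 at 0 in every library. The 14 genes of the male soma list, of which try-5 and swm-1 act in seminal fluid, summed to between 9.35 and 13.1 CPM, with no library of met-2 set-25 outside the wild-type range.

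Most sperm genes were at or near the limit of detection in every genotype. Counts of 0 in all 6 libraries were recorded for 29 of the 83 genes, and 45 had fewer than 10 counts over the 6 libraries together. At least 1 count was found for 45 and 43 of them in met-2 set-25, against 40 and 37 in cec-4 and 40 and 38 in wild-type. The spe and fer genes supplied between 96.8% and 99.2% of the sperm gene counts of a library.

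The 30 msp genes encode MSP itself, which builds the crawling machinery and also signals to the oocyte, and 28 of them share a coding length of 384 bp. Of these genes 24 had no counts in any library and none of the 30 was tested. Their counts summed to 6 and 1 in met-2 set-25, 2 and 0 in cec-4, and 1 and 4 in wild-type. The best supported was msp-142, with 4 and 1 counts in met-2 set-25 and 0 in each of the other 4 libraries. The levels of the genotypes overlapped for the class, and differences within it were not detectable in these counts. Reads of near-identical copies can match several genes. The sources used here do not give how such reads were counted, so a count of 0 for an msp gene says only that it is listed at 0. The msp genes lay on 2 chromosomes, 13 on chromosome II between 4785898 and 5810330 and 17 on chromosome IV between 5055631 and 10143740 (WBcel235). Those on chromosome IV were split, with none between the end of msp-65 at 5316906 and the start of msp-76 at 9689015.

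The 10 nspd genes, of the nematode-specific peptide family group D, encode short peptides enriched in sperm. Their summed level was 2.32 and 1.65 CPM in met-2 set-25, 0.477 and 0.497 CPM in cec-4, and 0.569 and 0.334 CPM in wild-type. Both met-2 set-25 libraries lay above the other 4. The mean of 1.98 ± 0.475 CPM in met-2 set-25, against 0.452 ± 0.166 CPM in wild-type (SD, n = 2), was 4.39 times as high. No test is given for sums over the genes chosen here. In met-2 set-25 nspd-7 supplied the largest part of the 10 genes, which it did not in cec-4 or wild-type, and without it the sums were 1.29 and 0.762 CPM in met-2 set-25, 0.386 and 0.380 CPM in cec-4, and 0.482 and 0.215 CPM in wild-type. The met-2 set-25 libraries were still the highest, with a mean 2.95 times that of wild-type. As copies of this family resemble each other, counts of its single members are uncertain.

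The gene nspd-7 (WBGene00012781; WBcel235 IV 10268975 to 10269187, minus strand, coding length 213 bp) held 31 and 36 counts in met-2 set-25, 4 and 4 in cec-4, and 4 and 5 in wild-type. In CPM these were 1.03 and 0.885 in met-2 set-25, 0.0908 and 0.117 in cec-4, and 0.0875 and 0.119 in wild-type. Both met-2 set-25 libraries lay above the other 4, and those of cec-4 and wild-type overlapped. In met-2 set-25 over wild-type nspd-7 rose by 3.17 on the log2 scale (SE 0.489; edgeR quasi-likelihood test with Benjamini-Hochberg adjustment, adjusted p = 0.0307). As nspd-7 reached the abundance needed for testing in both libraries of met-2 set-25 only, its value is a description only. It passed in 9 of 13 alternative analyses and did not pass when a wild-type library was left out (adjusted p = 0.144 without replicate 1 and 0.0945 without replicate 2) or one of met-2 set-25 (0.274 and 0.208), where the log2 fold changes lay between 2.96 and 3.41.

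Of the other nspd genes, only nspd-1 (WBGene00022754; I 6097579 to 6097791, coding length 213 bp) was tested. It held 20 and 14 counts in met-2 set-25, 8 and 2 in cec-4, and 6 and 1 in wild-type. The met-2 set-25 libraries were the highest, but the cec-4 and wild-type libraries differed several-fold within each genotype. Its log2 fold change in met-2 set-25 over wild-type was 2.59 (SE 0.79), which did not pass (edgeR adjusted p = 0.398). Only in met-2 set-25 did both libraries hold enough nspd-1 counts for testing, so its value is a description only. Counts of nspd-2 were 6 and 6 in met-2 set-25, 0 and 1 in cec-4, and 1 and 0 in wild-type, too few to be tested. Libraries of met-2 set-25 and wild-type overlapped for nspd-9, with 4 and 4 counts in met-2 set-25, 1 and 1 in cec-4, and 8 and 3 in wild-type, and for nspd-10, with 2 and 7, 6 and 7, and 4 and 4 in the same order. The genes nspd-4 and nspd-5 were listed at 0 in every library.

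The 12 ssp genes, of the sperm-specific family class P, encode small proteins with a domain related to MSP. None was tested, and their counts summed to 19 and 14 in met-2 set-25, 7 and 5 in cec-4, and 5 and 3 in wild-type. In CPM these sums were 0.629 and 0.344 in met-2 set-25, 0.159 and 0.146 in cec-4, and 0.109 and 0.0716 in wild-type. Both met-2 set-25 libraries were the highest, and the 2 met-2 set-25 libraries differed from each other by more than the cec-4 and wild-type libraries did. The member with the most counts in a library was ssp-35, with 8 and 1 in met-2 set-25, 2 and 0 in cec-4, and 2 and 0 in wild-type. Its counts came largely from met-2 set-25 replicate 1. Those of ssp-31 were spread more evenly, with 2 and 5 in met-2 set-25, 0 and 4 in cec-4, and 0 and 0 in wild-type.

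The phosphatase genes gsp-3 and gsp-4 encode near-identical catalytic subunits of protein phosphatase 1 that are enriched in sperm and act in sperm meiosis and motility. The gene gsp-3 (WBGene00021113; I 4709259 to 4710712, coding length 918 bp) held 18 and 10 counts in met-2 set-25, 5 and 2 in cec-4, and 6 and 4 in wild-type. Its met-2 set-25 libraries lay above the other 4. The log2 fold change against wild-type of 1.82 (SE 0.654) did not pass (edgeR adjusted p = 0.601). Only in met-2 set-25 did both libraries hold enough gsp-3 counts for testing, so this value is a description only. The gene gsp-4 (WBGene00020187; I 3838237 to 3839673) held 17 and 14 counts in met-2 set-25, 13 and 12 in cec-4, and 8 and 21 in wild-type, so that its genotypes overlapped. Reads of this pair could be shared, which makes a difference between them uncertain. Over the msp, nspd, ssp and gsp genes together, with nspd genes supplying 70 of 130 and 67 of 106 counts in met-2 set-25, the level was 4.31 and 2.61 CPM in met-2 set-25, 1.09 and 1.052 CPM in cec-4, and 1.01 and 1.098 CPM in wild-type.

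**Figure D1:**
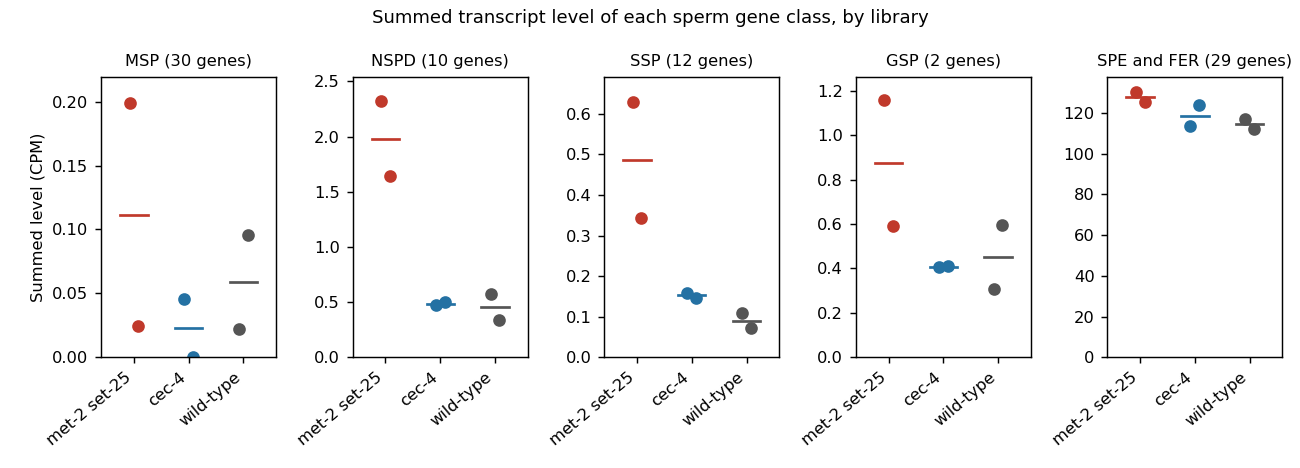
Summed level in CPM (vertical axes, each starting at 0) of the 5 classes of sperm genes; points are libraries and bars the mean of 2 libraries for met-2 set-25, cec-4 and wild-type. The nspd and ssp sums are highest in both met-2 set-25 libraries, and the msp sums overlap between genotypes at under 0.2 CPM. The spe and fer sums are also highest in both met-2 set-25 libraries, with a mean 1.11 times that of wild-type.

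Among the 29 spe and fer genes, each of which had at least 1 count, levels spanned a wide range. Per coding length, spe-48 and spe-39 stood apart from all others, with means of 35.7 ± 0.117 and 25.3 ± 0.0932 CPM per kb in met-2 set-25, 37.98 ± 0.805 and 30.7 ± 3.52 in cec-4, and 38.4 ± 2.94 and 29.7 ± 0.758 in wild-type (SD, n = 2). The product of spe-39 acts in vesicle traffic in many tissues. The next 4 by mean over the 6 libraries were spe-6, spe-15, spe-54 and spe-44. In wild-type these 4 lay between 2.45 and 2.96 CPM per kb, near the median of 2.35 CPM per kb over all 20182 genes in the 6 libraries. Most of the sperm genes thus lay under the median gene, and 75.9% of all genes lay under spe-48, the highest of them. The 3 genes with the most counts, spe-39, spe-48 and spe-15, hold most of the counts of the whole set. Over the other 80 sperm genes the level was 39.9 and 33.4 CPM in met-2 set-25, 22.9 and 23.4 CPM in cec-4, and 21.9 and 20.6 CPM in wild-type. Without spe-6 as well it was 26.1 and 21.8 CPM in met-2 set-25, 19.6 and 20.7 CPM in cec-4, and 18.3 and 17.4 CPM in wild-type, so that spe-6 carried a large part of the difference.

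**Figure D2:**
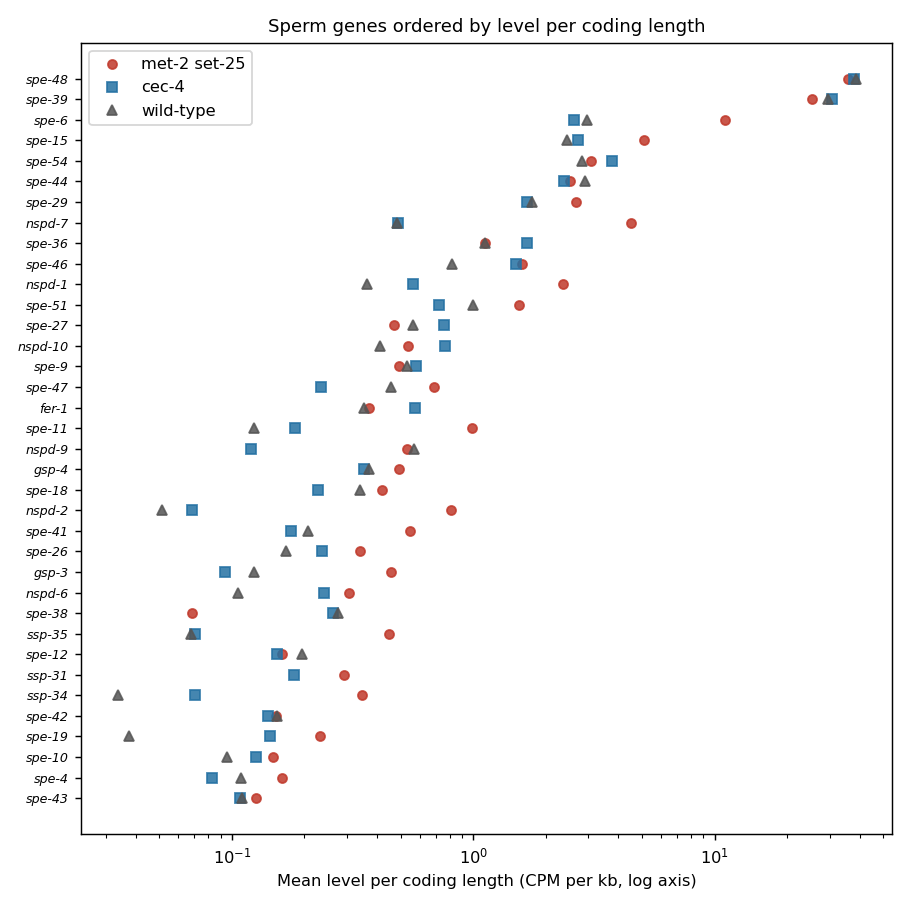
Mean level per coding length (CPM per kb, log axis) of 36 sperm genes over 0.1 CPM per kb on average, ordered by their mean over the 6 libraries; circles, squares and triangles are means of 2 libraries of met-2 set-25, cec-4 and wild-type. The genes spe-48 and spe-39 lie far above the rest with similar levels in the 3 genotypes, while spe-6, nspd-7, nspd-1, spe-11, nspd-2 and gsp-3 are among those whose met-2 set-25 point lies well to the right of the others; ssp-31 has no wild-type point because it is listed at 0 there.

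Setting met-2 set-25 beside wild-type asks how these genes respond when H3K9 methylation is lost. Of the 24 sperm genes tested, spe-6 and nspd-7 rose and 0 fell, while 0.659% of the 13951 genes tested were higher and 0.0287% lower. An unadjusted p under 0.05 was found for 5.71% of all genes tested. With a higher level it was found for 8 of the 24, against 4.67% of all genes tested, and with a lower level for 0 of the 24, against 1.04%. In 10 of the 24 both met-2 set-25 libraries lay above both wild-type libraries and in 2 below, where 14.5% and 12.7% of all genes tested did so. The median log2 fold change of the 24 was 0.49, beside -0.03 over all genes tested. These counts are a description and no support for a response of sperm genes as a group, because 5 of the 24, namely gsp-3, nspd-1, nspd-7, spe-11 and spe-18, reached the abundance needed for testing in both libraries of met-2 set-25 and of no other genotype. The genes were also chosen with earlier results of these data known.

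The kinase gene spe-6 (WBGene00004960; III 11505488 to 11508930, plus strand, coding length 1140 bp) encodes a casein kinase 1 family enzyme needed for MSP assembly and for holding sperm inactive until the right time. It stood at 13.8 and 11.5 CPM in met-2 set-25, 3.27 and 2.72 CPM in cec-4, and 3.59 and 3.15 CPM in wild-type. The counts behind these values were 416 and 468 in met-2 set-25, 144 and 93 in cec-4, and 164 and 132 in wild-type, which makes it the best measured of the sperm genes that rose. Both met-2 set-25 libraries lay above the other 4. In met-2 set-25 over wild-type spe-6 rose by 1.91 on the log2 scale (SE 0.281; adjusted p = 0.0267 by edgeR). The means were 12.6 ± 1.61 CPM in met-2 set-25 and 3.37 ± 0.311 CPM in wild-type (SD, n = 2), a ratio of 3.75. It passed in 10 of 14 alternatives and did not pass when a wild-type library was left out (adjusted p = 0.0564 without replicate 1 and 0.0645 without replicate 2) or one of met-2 set-25 (0.262 and 0.136), where the log2 fold changes were 1.77 to 2.03.

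A further 6 sperm genes were at an unadjusted p under 0.05 in met-2 set-25 over wild-type without passing the adjusted test. The gene spe-15 (WBGene00004969; I 1446497 to 1465358, coding length 3660 bp) encodes a myosin of class VI that sorts cell contents when spermatids bud off. It stood at 18.7 and 18.7 CPM in met-2 set-25, 8.33 and 11.6 CPM in cec-4, and 7.86 and 10.05 CPM in wild-type, with a log2 fold change of 1.06 (SE 0.271, edgeR adjusted p = 0.218). The met-2 set-25 libraries lay above the other 4. It passed with DESeq2 (adjusted p = 0.0176) and with a replicate block (0.0497). The gene gst-25 lies within spe-15 on the opposite strand. It held 12 and 7 counts in met-2 set-25, 19 and 9 in cec-4, and 7 and 20 in wild-type, against 565 and 762, 367 and 396, and 359 and 421 counts of spe-15 in the same order. The sources used here do not give the use of strand in counting.

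The gene spe-41 (WBGene00004976; III 3439011 to 3444210, coding length 2565 bp), also known as trp-3, encodes a TRP calcium channel that sperm need to fertilise the egg. It stood at 1.52 and 1.28 CPM in met-2 set-25, 0.409 and 0.497 CPM in cec-4, and 0.700 and 0.358 CPM in wild-type. The met-2 set-25 libraries were the highest, and the log2 fold change of 1.39 (SE 0.429) did not pass (edgeR adjusted p = 0.406). The gene spe-11 (WBGene00004965; I 5330578 to 5332169, coding length 900 bp) encodes a protein that sperm bring to the egg and that the embryo needs. It stood at 1.36 and 0.418 CPM in met-2 set-25, 0.182 and 0.146 CPM in cec-4, and 0.175 and 0.0477 CPM in wild-type. The 2 met-2 set-25 libraries, with 41 and 17 counts, differed by several-fold from each other and both lay above the rest. On the log2 scale it stood 2.91 higher (SE 0.759; adjusted p = 0.239 by edgeR). It passed with no filter on low counts (0.038) and with a replicate block (0.0458). Only in met-2 set-25 did both libraries reach the spe-11 abundance needed for testing in the main fit, so these values are a description only. The gene spe-26 (WBGene00004972; IV 10389578 to 10391927), for a kelch-repeat protein of the sperm cytoskeleton, stood at 0.497 and 0.664 CPM in met-2 set-25, 0.431 and 0.380 CPM in cec-4, and 0.263 and 0.310 CPM in wild-type (log2 fold change 1.02, SE 0.439, edgeR adjusted p = 0.859). R10H10.3, on the opposite strand, spans spe-26, so its counts are uncertain. The remaining members of these 6 are nspd-1 and gsp-3, given above.

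**Figure D3:**
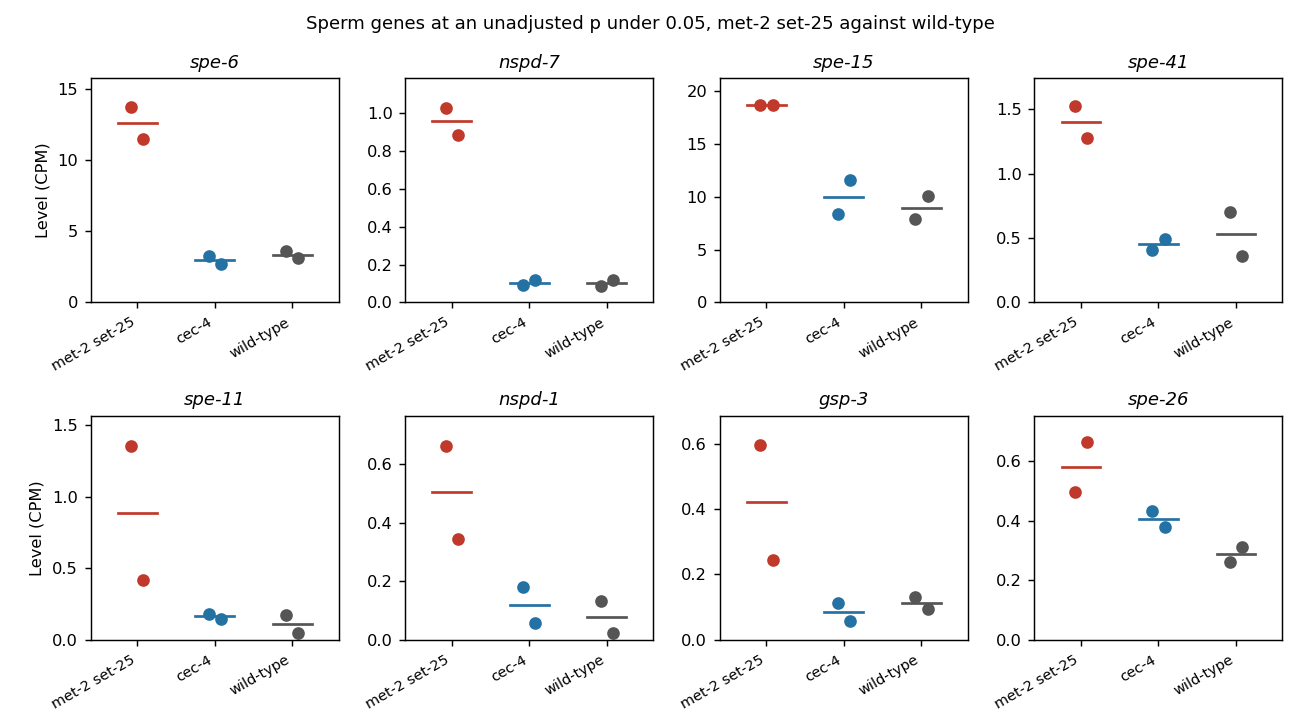
Level in CPM (vertical axes, each starting at 0) of the 8 sperm genes at an unadjusted p under 0.05 in met-2 set-25 over wild-type; points are libraries and bars the mean of 2 libraries of each genotype. Both met-2 set-25 libraries lie above all others in each panel. The genes spe-11, nspd-1 and gsp-3 show the widest relative gap between the 2 met-2 set-25 libraries. Only spe-6 and nspd-7 passed the adjusted test. In both libraries of met-2 set-25 only did nspd-7, spe-11, nspd-1 and gsp-3 reach the abundance needed for testing.

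The other spe and fer genes tested did not pass. The most abundant, spe-39 (WBGene00004975; V 6785451 to 6787864), stood at 39.8 and 39.5 CPM in met-2 set-25, 44.2 and 52.1 CPM in cec-4, and 47.4 and 45.7 CPM in wild-type. Its met-2 set-25 libraries lay below the others, with a log2 fold change against wild-type of -0.23 (SE 0.184; adjusted p = 0.9997 by edgeR). The gene spe-48 (WBGene00021771; I 1950594 to 1958527) stood at 36.1 and 36.3 CPM in met-2 set-25, 39.1 and 37.9 CPM in cec-4, and 41.1 and 36.8 CPM in wild-type. The difference of spe-48 over wild-type was -0.11 on the log2 scale (SE 0.184). The gene spe-54 (WBGene00010136; I 8869715 to 8871531), also among the highest per coding length, stood at 2.55 and 2.78 CPM in met-2 set-25, 3.31 and 3.16 CPM in cec-4, and 2.80 and 2.08 CPM in wild-type. Its met-2 set-25 libraries overlapped those of wild-type.

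The gene spe-44 (WBGene00007732; IV 12452063 to 12454215) encodes a transcription factor that switches on sperm genes, msp genes among them. It stood at 2.55 and 3.86 CPM in met-2 set-25, 2.86 and 3.19 CPM in cec-4, and 4.62 and 2.82 CPM in wild-type. Its genotypes overlapped. The ferlin gene fer-1 (WBGene00001414; I 8623012 to 8631202), needed for organelles to fuse with the sperm surface during activation, stood at 2.29 and 2.21 CPM in met-2 set-25, 3.13 and 3.86 CPM in cec-4, and 1.55 and 2.77 CPM in wild-type. The activation genes spe-8, for a tyrosine kinase, and spe-12, for a membrane protein, were too scarce to be tested, with 3 and 1, 2 and 4, and 3 and 0 counts of spe-8 and 6 and 2, 4 and 5, and 5 and 8 counts of spe-12 in met-2 set-25, cec-4 and wild-type libraries.

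None of the genes for surface proteins of fertilisation passed the test. The gene spe-9 (WBGene00004963; I 11582743 to 11586069), for an EGF-repeat protein of the sperm surface, stood at 0.927 and 1.03 CPM in met-2 set-25, 1.02 and 1.29 CPM in cec-4, and 0.744 and 1.36 CPM in wild-type. Genes on the opposite strand overlap it. Counts of spe-38, for a membrane protein also needed for fertilisation, were 0 and 3 in met-2 set-25, 6 and 5 in cec-4, and 7 and 6 in wild-type, too few to be tested. On its own strand impt-1 overlaps spe-38, so these counts are uncertain. The activation gene spe-27, which another gene, C06E7.88, overlaps on the same strand, had a log2 fold change in met-2 set-25 over wild-type of -0.25 (SE 0.72) that did not pass (edgeR adjusted p = 0.9997) and turned direction in some alternatives. Its levels were 0.199 and 0.172 CPM in met-2 set-25, 0.250 and 0.351 CPM in cec-4, and 0.0875 and 0.358 CPM in wild-type.

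Setting cec-4 beside wild-type asks what the loss of the anchor alone does. Of the 24 sperm genes 0 passed the edgeR test, 0 had an unadjusted p under 0.05, and 0 passed with DESeq2 or with limma voom. Of all 13951 genes tested 0.00717% were higher and 0% lower, and 0.939% had an unadjusted p under 0.05 (0.294% with a higher and 0.645% with a lower level). Both cec-4 libraries lay above both wild-type libraries for 5 of the 24 (fer-1, spe-26, spe-36, spe-46 and spe-54), where 11.8% of all genes tested did so, and below them for 1 (spe-47), where 10.2% did. The log2 fold changes lay between -0.96 and 0.88 with a median of 0.02, beside -0.02 over all genes. At the upper end were spe-46 (0.88, SE 0.437), fer-1 (0.69, SE 0.358) and nspd-1 (0.64, SE 0.922), and at the lower end spe-47 (-0.96, SE 0.508), spe-18 (-0.56, SE 0.55) and spe-51 (-0.45, SE 0.448), none of them past the threshold (adjusted p = 0.9998 throughout, by edgeR). The directions of nspd-1, spe-18 and spe-51 turned without a single library. The level of spe-46 was 1.79 and 0.983 CPM in met-2 set-25, 1.32 and 1.32 CPM in cec-4, and 0.897 and 0.525 CPM in wild-type, with both mutants above wild-type. That of spe-51, for a secreted immunoglobulin-like protein, was 2.25 and 2.14 CPM in met-2 set-25, 1.38 and 0.672 CPM in cec-4, and 1.82 and 1.03 CPM in wild-type. That of spe-18, which helps place MSP in developing sperm, was 0.497 and 0.393 CPM in met-2 set-25, 0.250 and 0.234 CPM in cec-4, and 0.219 and 0.501 CPM in wild-type. Replicates of wild-type differed for both by about as much as the genotypes did. The lack of calls does not show that levels were equal.

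A direct test of met-2 set-25 against cec-4 shows whether the mutants differ from each other. The same members, spe-6 and nspd-7, were the higher ones in met-2 set-25 relative to cec-4, and 0 of the 24 were lower, while 0.609% of all genes tested were higher and 0.0287% lower. In this comparison spe-6 stood 2.07 higher on the log2 scale (SE 0.284; adjusted p = 0.0214 by edgeR) and nspd-7 3.18 higher (SE 0.499, adjusted p = 0.0364). Neither passed when a library of met-2 set-25 or cec-4 was left out, with adjusted p of 0.119 to 0.215 for spe-6 and 0.193 to 0.301 for nspd-7. The same met-2 set-25 libraries enter this comparison and the one with wild-type. At an unadjusted p under 0.05 were 10.2% of all genes tested, 5.97% with a higher and 4.26% with a lower level, and 9 of the 24, each with a higher level. Both met-2 set-25 libraries lay above both cec-4 libraries for 11 of the 24 and below them for 6, against 23.7% and 21.2% of all genes tested. Here too these counts are a description and no support for a response of sperm genes as a group. The genes gsp-3, nspd-1, nspd-7, spe-11 and spe-18 reached the abundance needed for testing in both libraries of met-2 set-25 and of no other genotype. The 9 were the 2 called genes, then spe-41 (1.63, SE 0.441), spe-15 (0.91, SE 0.27), spe-11 (2.37, SE 0.733), gsp-3 (2.17, SE 0.694), nspd-1 (1.95, SE 0.75), spe-47 (1.52, SE 0.504) and spe-51 (1.08, SE 0.447), the last 7 with edgeR adjusted p between 0.240 and 0.472. Of these, spe-47, for a protein with an MSP domain, stood at 1.06 and 0.516 CPM in met-2 set-25, 0.272 and 0.263 CPM in cec-4, and 0.569 and 0.477 CPM in wild-type. Its cec-4 libraries lay below the other 4, and its met-2 set-25 and wild-type libraries overlapped. Negative values included those of spe-27 (-0.68, SE 0.704) and fer-1 (-0.63, SE 0.36), which did not pass (edgeR adjusted p = 0.812 and 0.595).

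**Figure D4:**
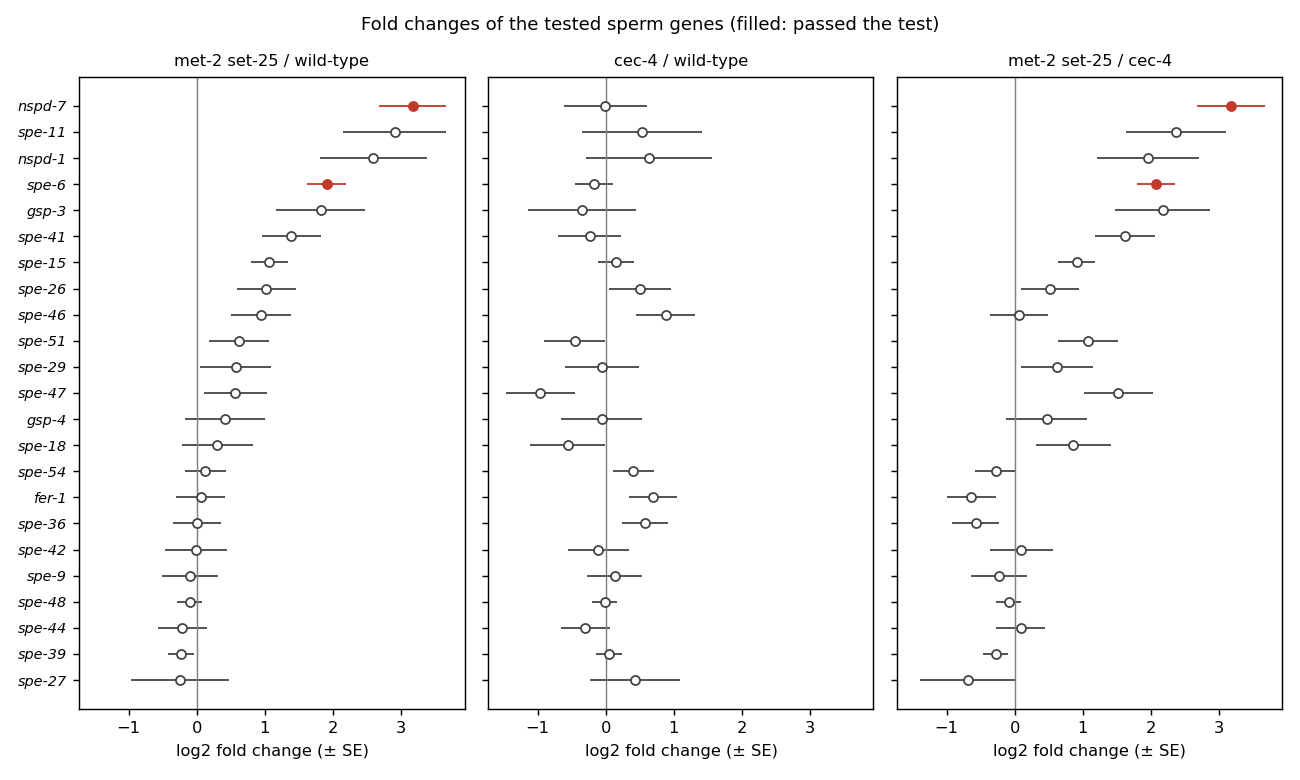
Log2 fold change with its SE (horizontal axes) of 23 tested sperm genes in met-2 set-25 over wild-type (left), cec-4 over wild-type (middle) and met-2 set-25 over cec-4 (right), ordered by the left panel; filled red points passed the edgeR test at an adjusted p under 0.05. Only spe-6 and nspd-7 are filled, in the left and right panels. No point is filled in the middle panel, where the values lie between -0.96 and 0.88. The gene nspd-7 reached the abundance needed for testing in both libraries of met-2 set-25 only.

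Other genes of the sperm program, named differently, were read from a list of 38, of which 30 were in the table under these symbols and 11 were tested. None passed with edgeR in any comparison. At an unadjusted p under 0.05 in met-2 set-25 over wild-type were msrp-2 (log2 fold change 1.79, SE 0.434), msd-4 (3.17, SE 0.916), smz-1 (1.53, SE 0.642), gskl-2 (0.86, SE 0.351) and mib-1 (0.80, SE 0.24), all higher, with edgeR adjusted p between 0.184 and 0.825. Counts of msd-4, for a protein with an MSP domain, were 39 and 25 in met-2 set-25, 7 and 2 in cec-4, and 9 and 0 in wild-type, and those of msrp-2 were 43 and 45, 13 and 12, and 21 and 11 in the same order. The met-2 set-25 libraries were the highest for both. Only in met-2 set-25 did both libraries hold enough msd-4 counts for testing, so its value is a description only. In the same comparison 4.67% of the whole tested set met the unadjusted cut with a higher level and 1.04% with a lower one. The kinase gene gskl-2, of the glycogen synthase kinase 3 family, stood at 2.45 and 2.11 CPM in met-2 set-25, 1.16 and 1.11 CPM in cec-4, and 1.53 and 0.978 CPM in wild-type. The ubiquitin ligase gene mib-1 stood at 15.5 and 15.04 CPM in met-2 set-25, 9.63 and 9.35 CPM in cec-4, and 9.54 and 7.995 CPM in wild-type, with its met-2 set-25 libraries above the other 4. The sperm-specific family Q gene ssq-3 held 5 and 8 counts in met-2 set-25 and 0 in each of the other 4 libraries, and was too scarce to be tested. The sperm chromatin genes spch-1, spch-2 and spch-3 held at most 2 counts in a library. The summed level of the 30 genes was 204 and 189 CPM in met-2 set-25, 196 and 193 CPM in cec-4, and 198 and 156 CPM in wild-type, most of it from wee-1.3, an inhibitory kinase of the cell cycle that oocytes also use.

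Regulators of the sperm fate and of spermatogenesis were mostly abundant. All 30 in the table were tested and none passed with edgeR in any comparison. Their median log2 fold change in met-2 set-25 over wild-type was -0.05, beside -0.03 over all genes tested. Of these 30 log2 fold changes 12 were positive, beside 45.9% over all genes tested. The largest were those of the spermatogenic Argonaute genes alg-3 (3.15, SE 0.705) and alg-4 (2.51, SE 0.669), whose products bind small RNAs in developing sperm, and of her-1 (1.32, SE 0.288), which encodes the secreted signal of male fate (edgeR adjusted p = 0.134, 0.257 and 0.125). Counts of alg-3 were 25 and 27 in met-2 set-25, 6 and 2 in cec-4, and 1 and 6 in wild-type, and those of alg-4 were 23 and 23, 5 and 1, and 8 and 2 in the same order. The level of her-1 was 12.8 and 14.6 CPM in met-2 set-25, 5.29 and 3.59 CPM in cec-4, and 5.32 and 5.63 CPM in wild-type. In all 3 the met-2 set-25 libraries lay above the other 4. For alg-3 and alg-4 this is a description only, because they reached the abundance needed for testing in both libraries of met-2 set-25 and of no other genotype. In met-2 set-25 over wild-type her-1 passed with DESeq2, with a replicate block and with no filter on low counts, and alg-3 passed with no filter. The genes that direct the germline to sperm, fog-1 and fog-3, had log2 fold changes of 0.37 (SE 0.272) and -0.03 (SE 0.399), and elt-1, whose product acts with that of spe-44, 0.02 (SE 0.159), none of which passed (edgeR adjusted p = 0.9997 each).

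Markers of the other cells that a sample of embryos could hold were read beside these results. The 13 oocyte and eggshell genes summed to 1363 and 1254 CPM in met-2 set-25, 1908 and 1999 CPM in cec-4, and 2366 and 1190 CPM in wild-type, with 0 of 11 tested members positive in met-2 set-25 over wild-type and none called, beside 45.9% positive over all genes tested. Without wild-type replicate 2, 5 were called lower, as were 15 of 14397 genes tested in that fit. The 15 meiotic germline genes in the table summed to 708 and 718 CPM in met-2 set-25, 633 and 566 CPM in cec-4, and 723 and 491 CPM in wild-type. Of these, the synaptonemal complex gene syp-1, at 152 and 122 CPM in met-2 set-25, 60.0 and 50.6 CPM in cec-4, and 67.2 and 53.0 CPM in wild-type, was higher in met-2 set-25 relative to cec-4 (log2 fold change 1.31, SE 0.207, edgeR adjusted p = 0.0364) and did not pass against wild-type (1.19, SE 0.206, adjusted p = 0.0517). Without any 1 library of met-2 set-25 or cec-4 the count of meiotic genes called between these mutants was 0. The 7 spermatheca and gonadal sheath genes summed to 259 and 282 CPM in met-2 set-25, 261 and 371 CPM in cec-4, and 264 and 368 CPM in wild-type. The maternal markers summed to 2333 and 1806 CPM in met-2 set-25, 2592 and 3085 CPM in cec-4, and 2585 and 2155 CPM in wild-type, and the early zygotic markers to 646 and 550, 556 and 415, and 638 and 367 CPM in the same order. In met-2 set-25 over wild-type 4 of 16 maternal and 12 of 14 tested zygotic markers were positive. Of the meiotic germline genes 10 of 15 were positive, and of the spermatheca and gonadal sheath genes 1 of 7. None of these was called in that comparison. The part of any such difference between lists in the values of spe-6 and nspd-7 was not tested.

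The sperm genes lay on 5 of the 6 chromosomes, with 21 on chromosome I, 16 on II, 3 on III, 36 on IV and 7 on V. None of the 83 lay on the X chromosome. The gene spe-6 lies 83.5% along chromosome III and nspd-7 58.7% along chromosome IV, by the last annotated gene end.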

How the data were processed

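RNA sequencing of early embryos gave 6 libraries, 2 for each of 3 genotypes. The deposited files hold unscaled read counts by the authors for 20182 genes, and log2 values, which recomputation shows to be the log2 of counts scaled to the mean library total plus 8. The log2 values were not tested, and deposited counts of genome windows were not used here. The sources used here do not give the aligner, counting tool, build, strand use or treatment of reads with several matches. Symbols (18778 genes matched) and positions came from WBcel235 annotation. Deposited gene widths, which are multiples of 3 for 96.6% of genes, served as coding length. Sequences were not analysed here.

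The test was edgeR 4.0.16 (R 4.3.3) on the deposited counts (filterByExpr, TMM scaling, quasi-likelihood test, genotype as the only term, all 6 libraries in the fit). This left 13951 genes, with Benjamini-Hochberg adjustment over all of them and a threshold of 0.05. SE is the absolute log2 fold change over the square root of the F statistic. The biological coefficient of variation was 21.7%. Floors of 3 counts cover counting error only. A simulation of the met-2 set-25 and wild-type libraries with 13530 genes recovered 33 of 100 planted 2-fold and 79 of 100 planted 4-fold changes, and 13 of its 125 calls were false. These recoveries are not split by abundance. Changes were planted only in genes over a minimum mean count in wild-type, which nspd-7, nspd-1, gsp-3 and spe-11 lie under. The recoveries therefore give no figure for such scarce genes. Alternatives used limma 3.58.1 (voom), DESeq2 1.42.0, other scalings and filters, a replicate block and libraries left out.

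The genes and lists were chosen with earlier results of these data known. Named with values are genes that passed, those at an unadjusted p under 0.05, the 6 highest per kb, the 3 largest and 3 smallest fold changes per comparison, and representatives of each role. From the other lists, genes that passed and up to 4 of smallest p are named. Genes named beyond these, namely nspd-2, nspd-9, nspd-10, ssp-31, ssp-35, msp-142, smz-1, ssq-3, wee-1.3, fog-1, fog-3, elt-1, the spch genes and neighbouring or overlapping genes, were chosen after their values were seen. 1 gene of the set counts in all totals and is otherwise not reported here.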

Additional observations from a re-analysis of the deposited data

How the results depend on the processing

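The count of sperm genes called in met-2 set-25 over wild-type was 2. It was 1 (spe-6) with a minimum of 1 CPM in 2 libraries, where nspd-7 was not tested, 3 with no filter on low counts (spe-11 joined), 3 with DESeq2 (spe-15 joined), 4 with a replicate block (both joined), 0 at an adjusted p under 0.01, and 0 to 2 with a library left out. Over all genes the higher calls against wild-type were 92 of 13951. They came to 183 of 13951 with the block, 183 with DESeq2 and 193 of 19025 with no filter. For met-2 set-25 over cec-4 they were 85 of 13951, and came to 280 with the block, 226 with DESeq2 and 238 of 19025 with no filter. With only these genotypes in the fit they were 177 of 13573. Against cec-4 the count of sperm genes was 2 and came to 1 with the 1 CPM minimum, 0 at an adjusted p under 0.01, and 0 to 2 with a library left out. The cec-4 against wild-type count was 0 in all alternatives. Same-numbered replicates deviated together, with correlations of replicate differences of 0.295, 0.531 and 0.190 between genotypes, but the labels tie no number to a batch, so the block is an alternative and not the main analysis. Of genes outside the symbols, no filter on low counts called 1 other sperm gene against wild-type (msd-4) and 1 against cec-4 (msrp-2), and 2 regulators against wild-type and 3 against cec-4. A replicate block called 1 and 2 regulators and DESeq2 called 1 and 1. The fit of met-2 set-25 and cec-4 alone called 2, and fits with a library left out called 0 to 1 regulator against cec-4. Oocyte genes called against wild-type were 0, and 0 to 5 with a library left out, the 5 without wild-type replicate 2. For meiotic genes against wild-type, 1 (syp-1) was called with upper quartile scaling, no filter, the 1 CPM minimum, a replicate block, only these genotypes or DESeq2, and 0 to 1 with a library left out, as against cec-4 (0 to 1). Summed means moved by more than 1 SD in few cases. With library totals in place of TMM these were all sperm genes (136 CPM) and spe and fer genes (132 CPM) in met-2 set-25 and, in cec-4, the 80 genes without the top 3 (22.3), nspd (0.468), nspd without nspd-7 (0.369), gsp (0.394, and 0.411 with RLE scaling) and the 4 smaller classes (1.03). Among the genes named, directions that turned were all of genes that did not pass. In met-2 set-25 over wild-type, the log2 fold change of spe-27 was 0.072 with limma voom and -0.95 to 1.06 with a library left out (positive without wild-type replicate 2). That of spe-47 was -0.018 to 1.01 (negative without met-2 set-25 replicate 1). In cec-4 over wild-type, nspd-1 ranged from -0.42 (without cec-4 replicate 1; -0.05 without wild-type replicate 2) to 2.25, spe-18 from -1.04 to 0.16 (positive without wild-type replicate 2) and spe-51 from -1.08 to 0.023 (positive without wild-type replicate 1). Counts of the msp, ssp and most nspd genes lie near or under the floor of 3 per library. For these families of similar copies, depth and the counting of reads with several matches cannot be told apart. The cause of these changes was not tested.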

Other observations

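Genes next to the called sperm genes were read from the WBcel235 annotation. On either side of spe-6 lie Y66D12A.21, 185 bp away, with a log2 fold change in met-2 set-25 over wild-type of 0.26, and Y66D12A.19, 150 bp away, with 0.28, and neither passed (edgeR adjusted p = 0.9997 each). Beside nspd-7, Y43C5A.2 lies 695 bp away with a log2 fold change of 0.13 and F01G10.9 lies 9317 bp away with -0.51 (edgeR adjusted p = 0.9997 each).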
